A study of Homo sapiens with 12 samples.

Results

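The 56 genes described here encode proteins of mitosis and DNA replication. They were chosen by name and not by a cut-off on a measured value, but with earlier results of these data known. Kinesins were left out of the list except CENPE, a motor protein of the kinetochore. Polyadenylated RNA of PANC-1, a human cell line established from pancreatic ductal adenocarcinoma, was fragmented and precipitated with an antibody against 1-methylguanosine (m1G), or kept as input. The 12 libraries formed 4 groups of 3. They were m1G IP and input from cells transfected with siRNA against TRMT5 for 4 days, and m1G IP and input from control cells. The titles call the controls WT control and place all 12 libraries in experiment 2. TRMT5 is the methyltransferase that makes m1G beside the anticodon of tRNAs, and the experiment asked where in mRNA the m1G antibody binds. The values are those of 2 lists that cover the whole experiment, with 9585 MetDiff peaks and 3705 MACS2 summits. Neither list holds a value per library, so no replicate error can be given, the read depth is unknown and knockdown was not compared with control. The file does not label its columns, and the fold of a MetDiff peak was taken to be IP over input, while −log10 q of a summit measures significance, not enrichment. Both are the authors' values. The labels do not say whether the 3 libraries of a group are separate cultures. Of the lists, 38 MetDiff peaks and 15 summits lay inside the GRCh38 spans of the 56 genes.

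Dividing cells copy their DNA once, in S phase, and then condense and separate the copies in mitosis. The MCM helicase is loaded on origins by CDC6 and CDT1 and activated with CDC45 and GINS, after which polymerases, the sliding clamp PCNA and its loader RFC copy both strands. In mitosis, CDK1 with B-type cyclins, Aurora kinases and PLK1 drive the cell into division. The BUB and MAD proteins of the spindle checkpoint hold back CDC20, the activator of the anaphase-promoting complex, until chromosomes are attached, and condensin compacts the chromosomes. The mRNAs of many of these proteins are made periodically in the cell cycle, under E2F factors in the first phase and under the MuvB complexes that bind CHR elements in the later one.

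Of the 56 genes, 20 held a MetDiff peak (35.7%, 95% Wilson interval 24.5 to 48.8), where 21.3% of the 20052 protein-coding genes held one. Summits lay in 11 genes (19.6%, 11.3 to 31.8), against 9.46% of protein-coding genes. The background includes genes that these cells do not express, expression was not used here, and the difference was not tested. Intervals cover counting error only. Both kinds of call were found in 10 genes (17.9%, against 8.07% of protein-coding genes), which are 50.0% of the members with a MetDiff peak and 90.9% of those with a summit. Over all protein-coding genes these shares were 37.9% and 85.3%. MCM7 was the 1 gene with summits and no MetDiff peak. With stricter calls, 19 members held a MetDiff peak of FDR under 0.01 (33.9%, against 20.3%), and 10 a summit with −log10 q of 10 or more (17.9%, against 6.93%). More than 1 summit was found in 4 members, CDC20, MCM2, MCM3 and MCM7 (7.14%, against 3.38%). Neither call was found in 35 genes.

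**Figure D1:**
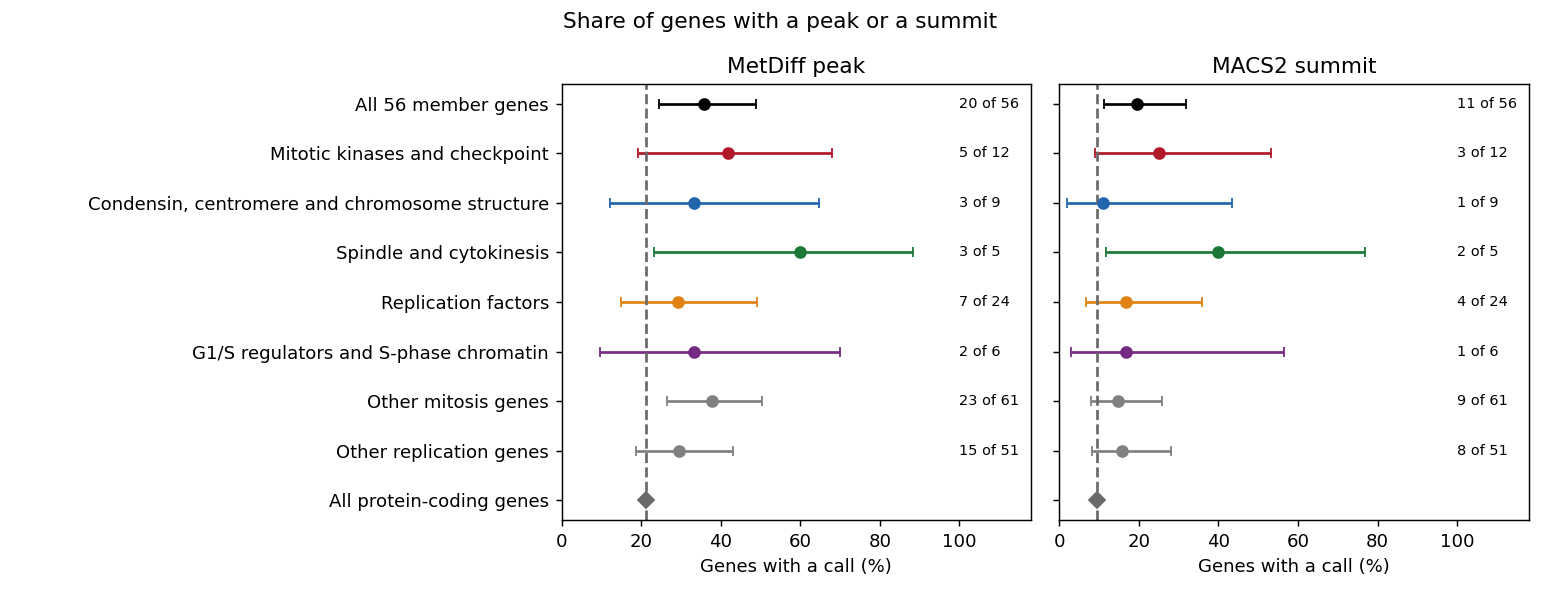
Share of genes with a MetDiff peak (left) or a MACS2 summit (right) in percent, with 95% Wilson intervals, for the 56 genes, the 5 role groups, the lists of other mitosis and replication genes and all protein-coding genes (diamond and dashed line, 21.3% and 9.46%). The intervals of the role groups overlap each other in both panels.

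Several calls lay at the 5′ ends of the genes, and there the reference table allows the sequence to be shown. The lines below run from 100 bases before to 30 bases after the RefSeq start, 5′ to 3′ on the strand of the gene (RefSeq, GRCh38.p14). In the first pair, PLK1 (chr16:23678789-23678918, plus strand) and PRC1 (chr15:90994506-90994635, minus strand), capitals mark bases inside a MetDiff peak.
PLK1: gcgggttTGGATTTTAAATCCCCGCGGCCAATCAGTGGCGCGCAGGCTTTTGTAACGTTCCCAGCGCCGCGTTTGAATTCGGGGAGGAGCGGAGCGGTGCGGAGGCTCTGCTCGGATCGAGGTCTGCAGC
PRC1: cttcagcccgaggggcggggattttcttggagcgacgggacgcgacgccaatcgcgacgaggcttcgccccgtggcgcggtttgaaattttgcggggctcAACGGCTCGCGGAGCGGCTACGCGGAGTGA
In the second pair, MCM3 (chr6:52284713-52284842, minus strand) and CDC6 (chr17:40287779-40287908, plus strand), a summit lay 48 and 2 bases before the start. Capitals mark letters of the E2F type.
MCM3: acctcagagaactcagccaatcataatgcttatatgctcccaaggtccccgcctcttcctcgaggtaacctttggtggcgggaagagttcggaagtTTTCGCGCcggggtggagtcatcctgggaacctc
CDC6: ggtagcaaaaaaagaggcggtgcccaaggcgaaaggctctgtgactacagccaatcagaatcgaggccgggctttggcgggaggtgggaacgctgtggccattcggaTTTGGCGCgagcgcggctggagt
The PLK1 peak began 93 bases before the RefSeq start, so that its first bases stand before the first transcribed base of the table. Of the 123 PLK1 bases in capitals, 44 were guanines (35.8%), and of the 30 in PRC1, 13 (43.3%). Peaks also reached into the windows of SMC2 and ECT2, where 32 of 82 bases (39.0%) and 7 of 25 bases (28.0%) were guanines. The SMC2 peak began 218 bases before the RefSeq start of its window. The ECT2 peak began 220 bases before that of its window and ended before it. Both starts lie inside the gene spans, so positions by span, given below, differ from these. Guanine made up 31.1% of the promoter windows of all protein-coding genes, which lie mostly upstream of the start. The PRC1 peak began at the first transcribed base and the PLK1 peak reached across it.

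Promoters of the mitosis members and of the replication factors differed in the letters they held, and those of other genes of both processes differed less. The 300-base RefSeq windows (250 bases before to 50 after the start) were searched on both strands for TTTGAA, the core of the CHR element, for CCAAT, and for E2F-like letters (TTTCCCGC, TTTCGCGC, TTTGCCGC or TTTGGCGC). Overlaps between motifs were kept, and a gene counted when any of its windows held the letters. Windows were matched for 48 of the 56 genes. TTTGAA stood in 18 of 22 mitosis members (81.8%) and 1 of 22 replication factors (RRM1, 4.55%), against 15.9% of 15842 protein-coding genes. It stood in 48.1% of 52 other mitosis genes and 10.3% of 39 other replication genes. E2F-like letters stood in 3 of 22 mitosis members (13.6%) and 14 of 22 replication factors (63.6%), among them all 4 MCM genes with a window, against 5.4% of protein-coding genes. In the lists of other genes the shares were 17.3% for mitosis and 35.9% for replication. CCAAT stood in 34 of 48 members (70.8%), against 42.1% of protein-coding genes. In PLK1 the TTTGAA began 29 bases before the start and in PRC1 20 bases before it. Of the 18 mitosis members with TTTGAA, 7 held a MetDiff peak, and 2 of the 4 without it. Over all protein-coding genes with a window, 371 of 2511 with TTTGAA held a peak, and 3148 of 13331 without it. Of the 14 replication factors with E2F-like letters 3 held a peak, and 3 of the 8 without. For these letters the counts over all protein-coding genes were 241 of 855 and 3278 of 14987. A match describes letters only, and none of these differences was tested.

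Among the 12 genes of mitotic kinases and the spindle checkpoint, 5 held a MetDiff peak and 3 a summit. Each of the 5 held 1 peak inside its span, and their folds, from 2.15 to 4.66, all lay below 6.18, the median of the highest fold per gene over the 4266 protein-coding genes with a peak. CDC20, the anaphase activator, had the highest of them, a fold of 4.66 (FDR 0.00182) at 43360193 to 43360389 on chromosome 1. It also held 2 summits, with −log10 q of 16.1 at position 43360118, 75 bases 5′ of that peak, and of 18.9 at position 43362917. CDC20 was thus called by both methods near its peak, and by MACS2 alone at 93.2% of its span.

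The checkpoint kinase BUB1 had a fold of 2.42 (FDR 3.24e-04) at 110661805 to 110661904 on chromosome 2, and a summit with −log10 q of 20.9 lay 24 bases from its 5′ edge. BUB3, which brings BUB1 to kinetochores, had a fold of 3.62 (FDR 1.29e-09) at 123157770 to 123157869 on chromosome 10, while its summit (−log10 q 13.6) lay 2481 bases away from that peak. AURKB, the kinase of the chromosomal passenger complex, had a fold of 2.15 (FDR 0.00182) at 8206601 to 8206742 on chromosome 17, and no summit. Of the genes with a peak, 95.5% reached at least the fold of AURKB and 93.2% that of BUB1. By fold, both lay in the lower part of the list.

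PLK1, a kinase of mitotic entry and cytokinesis, showed how far the span decides a value. Inside the RefSeq span it held 1 peak with a fold of 2.78 at 23679292 to 23679391. The peak printed above (23678796 to 23678994), which overlaps the start, had a fold of 6.15, and both had an FDR of 5.01e-13. A summit with −log10 q of 17.3 lay inside this stronger peak, 23 bases before the RefSeq start, and so outside the span. PLK1 therefore counts here as a gene with a MetDiff peak and without a summit. The other 7 genes of the group, CCNB1 and CCNB2 (B-type cyclins), CDK1, AURKA, BUB1B, MAD2L1 and TTK, held neither a peak nor a summit.

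Of 9 genes of condensin, the centromere and chromosome structure, 3 held a MetDiff peak and 1 a summit. SMC2, an ATPase subunit of condensin, held 3 peaks with folds of 6.71 (104094409 to 104094645 on chromosome 9, FDR 2.69e-08), 4.67 and 3.14. They began at 11.6%, 86.9% and 99.6% of the span, the last and weakest with an FDR of 0.0132. The first covered position 104094627, the RefSeq start used for the promoter window, which lies inside the span. SMC4, the partner ATPase, held none, nor did NCAPG. The condensin subunit NCAPD2 had 1 peak with a fold of 1.46 at FDR 0.012, the weakest of the 20 members by highest fold, and 99.5% of genes with a peak reached it. With peaks at FDR under 0.01, NCAPD2 no longer counted.

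All 3 centromere genes were without calls: CENPA, the histone H3 variant of centromeres, CENPE and CENPF. TOP2A, the topoisomerase that untangles sister chromatids, was also without calls. MKI67, which encodes the Ki-67 protein that coats mitotic chromosomes, held a peak with a fold of 4.95 (FDR 2.57e-04) at 128126123 to 128126323 on chromosome 10, beginning 100 bases from the 5′ end. Its summit, 24 bases 5′ of the peak, had −log10 q of 30, a value reached by 17.5% of protein-coding genes with a summit. MKI67 was thus the only one of these 9 genes called in both lists.

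Of 5 spindle and cytokinesis genes, 3 held a MetDiff peak and 2 a summit. PRC1, which bundles microtubules of the central spindle, had the highest fold of the 26 mitosis members, 7.84 (FDR 1.35e-05), at the first bases of its span (90994435 to 90994535 on chromosome 15). Its summit (−log10 q 16.7) lay at position 90984953, far from that peak and in a stretch shared with the antisense gene PRC1-AS1, so the 2 calls do not mark 1 site. TPX2, an activator of Aurora A, had a fold of 2.09 (FDR 0.002) at 31739370 to 31739567 on chromosome 20 and a summit with −log10 q of 21.7, 13 bases 5′ of it. ECT2, which activates RhoA for cytokinesis, held 2 peaks. Their folds were 3.41, beginning 56 bases from the 5′ end of the span, and 4.85, at 84.1% of the span. NUSAP1 and ANLN held neither call.

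Replication factors had peaks in 7 of 24 genes and summits in 4. These genes held 21 peaks, so that several stood in 1 gene. Of the 24, 6 held 2 or more (25%), as did 2 of the 26 mitosis members (7.69%), against 11.8% of protein-coding genes. All these counts include rows of other gene IDs inside a span. POLD1 reached 2 only through such a row, and MCM2 also held 1. In the lists of other genes the order was the opposite, with 16 of 61 other mitosis genes (26.2%) and 6 of 51 other replication genes (11.8%). All 3 members with a fold of 10 or more, POLE, MCM3 and RFC2, were replication factors (5.36% of the 56 genes, against 4.81% of protein-coding genes). That share is near the background, and such folds were also found in 7 of 61 other mitosis genes (11.5%) and 5 of 51 other replication genes (9.8%). With FDR under 0.01, 2 of them remained, since the strong POLE peak had an FDR of 0.011.

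The MCM genes, which encode the 6 subunits of the replicative helicase, held 11 of the 21 peaks. MCM2 held 5 MetDiff rows and 2 summits. Its highest fold was 5.33 (FDR 4.90e-04) for a peak of 4 exon blocks from 127599494 to 127605009 on chromosome 3. A summit with −log10 q of 37.5 at position 127604740, the highest value of the members and reached by 11.6% of genes with a summit, lay inside 1 of these blocks. The second summit, with 7.92, lay inside the peak with a fold of 3.91, and the MCM2 summits were the only 2 of the 15 inside a block. At the 3′ end of MCM2, a row on its own strand (127622188 to 127622287, fold 2.37) and a row of another gene ID on the opposite strand (127622189 to 127622289, fold 1.98) covered nearly the same bases. The sources used here do not say whether counting used strand, so reads of the 2 genes cannot be told apart there.

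MCM3 had folds of 12 (FDR 0.00229, 52273351 to 52273836 on chromosome 6) and 8.58 (FDR 0.00245, 52283391 to 52284681), and 14.7% of genes with a peak reached the higher value. Summits with −log10 q of 11.8 and 17.6 lay 84 and 110 bases 5′ of blocks of these peaks, and another with 24.4 lay 48 bases before the RefSeq start. MCM5 held 4 peaks with folds of 3.28, 4.92, 2.91 and 4.9 from the 5′ end onward, the last of them at 38.7% of the span, and a summit (−log10 q 17.2) 44 bases 5′ of a block of the first. MCM7 held no MetDiff peak but summits with −log10 q of 9.5 and 9.02, at positions 100093177 and 100098003 on chromosome 7. MCM4 and MCM6 held neither call, so that the subunits of 1 complex differed from 5 rows to none.

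At the rest of the fork, POLE, the catalytic subunit of the leading-strand polymerase, held 5 peaks. Of these, 4 spread over the span had folds between 2.46 and 3.76. The remaining peak (132661063 to 132661625 on chromosome 12) had a fold of 14.2, which 8.93% of genes with a peak reached. With FDR under 0.01 the highest fold of POLE was 3.76. POLD1, the catalytic subunit of the lagging-strand polymerase, had folds of 4.48 (FDR 0.00355) and 5.37 (FDR 5.01e-11) for overlapping peaks at its 3′ end. The stronger carries another gene ID, so the fold under the ID of POLD1 itself was 4.48. RFC2, a subunit of the clamp loader, had 1 peak with a fold of 10.1 (FDR 1.48e-05) at 74231892 to 74231990 on chromosome 7, at its 3′ end. CDC45, part of the active helicase, had folds of 3.33 and 4.0 at 1.47% and 90.8% of its span. POLE, POLD1, RFC2 and CDC45 held no summit.

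No call lay inside the other 16 replication factors. These were the clamp PCNA, the ribonucleotide reductase subunits RRM1 and RRM2, the thymidylate synthase TYMS, the licensing factors CDC6 and CDT1, GINS1 and GINS2, the clamp loader subunits RFC1, RFC3, RFC4 and RFC5, the primase-polymerase subunit POLA1, the checkpoint mediator CLSPN, and MCM4 and MCM6. CDC6 had its summit, with −log10 q of 11.9, just before the span. With spans widened by 500 bases, an alternative chosen after seeing the data, 13 of 56 members held a summit (23.2%, 14.1 to 35.8), PLK1 and CDC6 in addition, against 10.4% of protein-coding genes.

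Of 6 regulators of S-phase entry and chromatin, UHRF1 and ATAD2 held calls. UHRF1, which guides maintenance DNA methylation, had folds of 8.41 (FDR 1.62e-04, 4910872 to 4911022 on chromosome 19) and 3.35, and a summit with −log10 q of 19.3 lay 44 bases 5′ of the stronger peak. That peak and summit also lie in the span of ARRDC5. With peaks in a sole gene span, the highest fold of UHRF1 was 3.35 and it held no summit. ATAD2, a bromodomain ATPase, had a fold of 3.71 (FDR 7.24e-05). CCNE1, CCNE2 and CCNA2, cyclins of S-phase entry and progression, and E2F1, the transcription factor that drives many replication genes, held neither call.

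**Figure D2:**
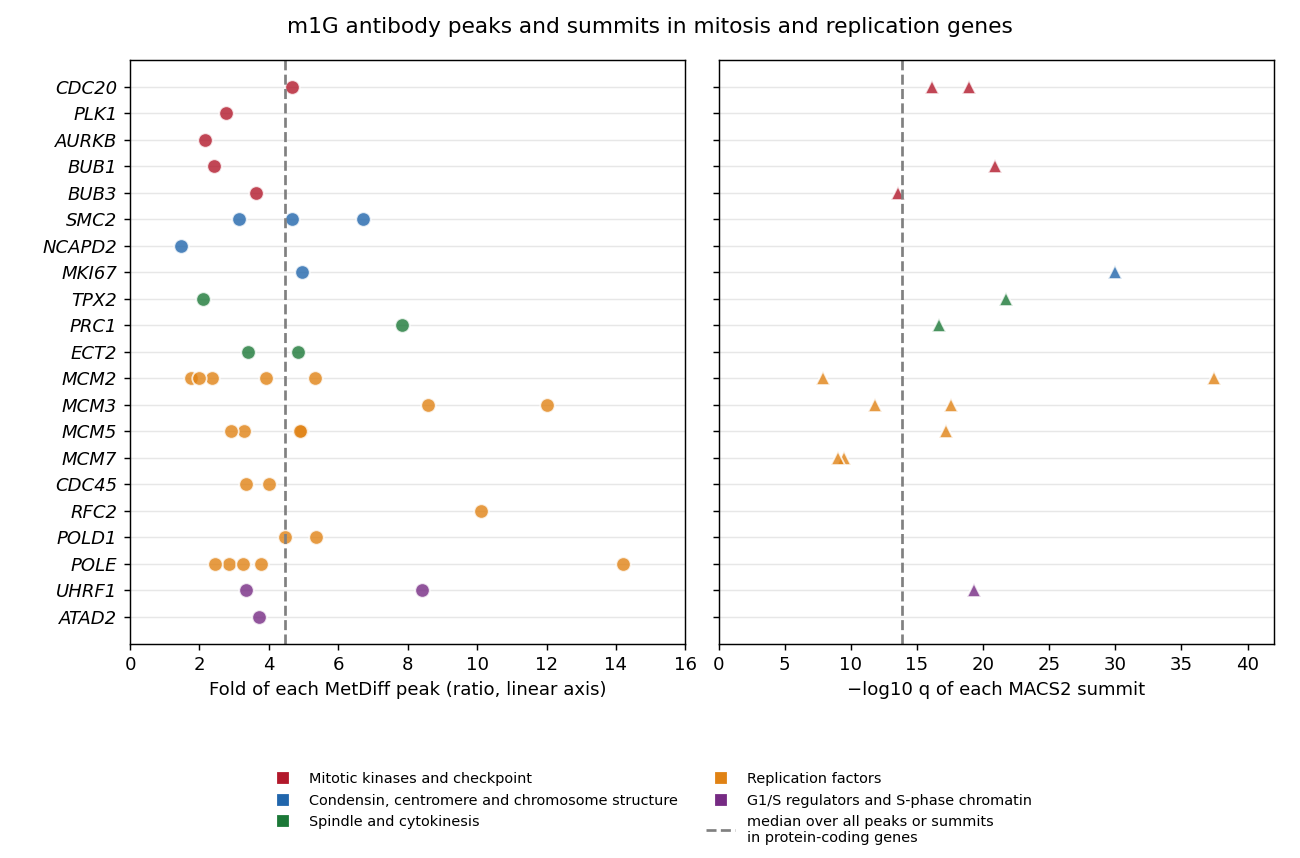
Fold of each MetDiff peak (left, linear axis) and −log10 q of each MACS2 summit (right) in the 21 genes with a call, coloured by role. Dashed lines are the medians over all peaks (4.47) and all summits (13.9) in protein-coding genes. Of the 38 peaks 22 lie left of the line and 16 at or right of it, and of the 15 summits 5 lie left and 10 right.

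Side by side, the 3 largest role groups had overlapping shares of genes with a peak. A MetDiff peak was held by 41.7% of the kinase and checkpoint genes (19.3 to 68.0), 33.3% of the condensin and centromere group (12.1 to 64.6) and 29.2% of replication factors (14.9 to 49.2). The differences were not tested. The median of the highest fold was 2.78 in the 5 kinase and checkpoint genes, 4.95 in the 3 of condensin and centromere, 4.85 in the 3 of spindle and cytokinesis and 5.37 in the 7 replication factors. Over all protein-coding genes with a peak it was 6.18. A gene with more peaks has more chances of a high one, and per peak the order changed. The median fold per peak was 2.78 in the kinase group, 4.67 in the condensin and centromere group, 4.13 in the spindle and cytokinesis group and 3.91 in replication factors, against 4.47 over 9225 peaks in protein-coding genes. By these medians replication factors, with 21 peaks, lay below the condensin and spindle groups, with 5 and 4. SMC2 held 3 of the 5. The ranges from the first to the third quartile overlapped: 2.91 to 5.33 in replication factors, 3.14 to 4.95 in the condensin group and 3.08 to 5.6 in the spindle group. Median span was 16300 bases in the kinase group, 35300 in the condensin and centromere group and 29200 in replication factors, against 24100 in protein-coding genes. The part of span or transcript length in these counts was not tested.

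**Figure D3:**
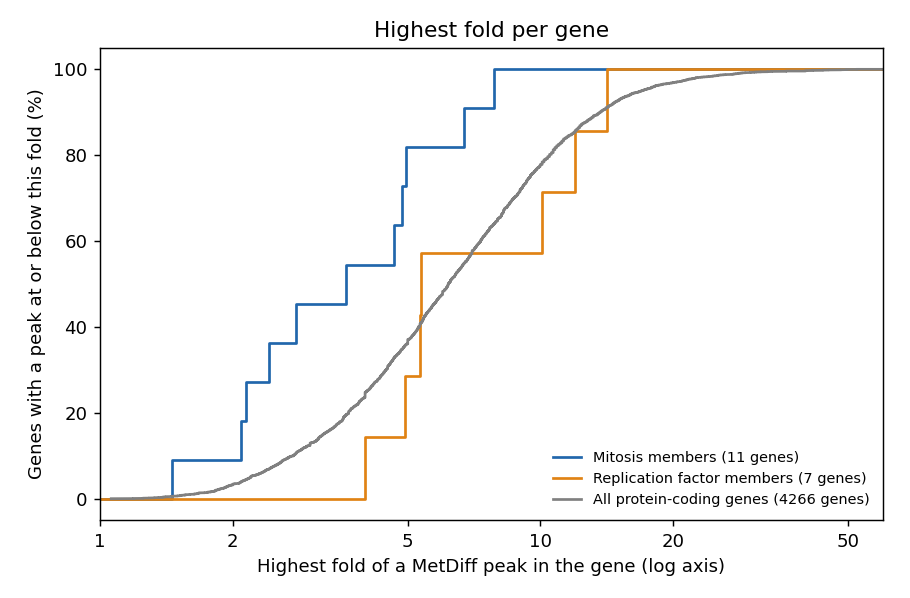
Cumulative share (percent) of genes with a peak by their highest fold (log axis), for 11 mitosis genes, 7 replication factors and 4266 protein-coding genes. The curve of the mitosis genes runs left of the others and ends at 7.84, while that of the replication factors crosses the curve of all genes.

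The 2 lists ranked the members differently. By fold, 14 of the 20 members with a peak lay below the median of all genes, 9 of the 11 mitosis genes among them. By −log10 q, 9 of the 11 members with a summit lay at or above the median of 14.9, and only BUB3 and MCM7 lay below. The lists of other genes did not show this contrast: by fold, 12 of 23 other mitosis genes and 9 of 15 other replication genes lay at or above the median, and by −log10 q, 4 of 9 and 3 of 8. TPX2 shows the contrast in 1 gene: 96.1% of genes reached its fold and 29.9% its −log10 q. The lists may rest on the same libraries, so they are not independent.

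Along the genes, peaks of the members stood at both ends and between. Of 36 peaks in no other protein-coding span and, where RefSeq gave a strand, on the strand of their gene, 7 began within 500 bases of the 5′ end (19.4%, 9.75 to 35.0), in ECT2, MCM3, MCM5, MKI67, PLK1, PRC1 and TPX2. Over 8514 such peaks of protein-coding genes the share was 15.5%. Within 500 bases of the 3′ end lay 4 (11.1%), in MCM2, POLE, RFC2 and SMC2, against 7.99%. By the midpoint of the peak, 9 lay in the first 10% of the span (25%, against 16.8%) and 7 in the last 10% (19.4%, against 24.8%), so that the members lay above all genes by the first measure of the 3′ end and below them by the second. Peaks of more than 1 exon block made up 55.6% (39.6 to 70.5), against 35.1%. Among the 13 members with a summit in or within 500 bases of the span, 6 had one within 250 bases of the 5′ end (46.2%, 23.2 to 70.9): PLK1, MKI67, TPX2, MCM3, MCM5 and CDC6. The share over 1979 protein-coding genes was 26.5%, within that interval. The windows were chosen after seeing the data, and none of these differences was tested.

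**Figure D4:**
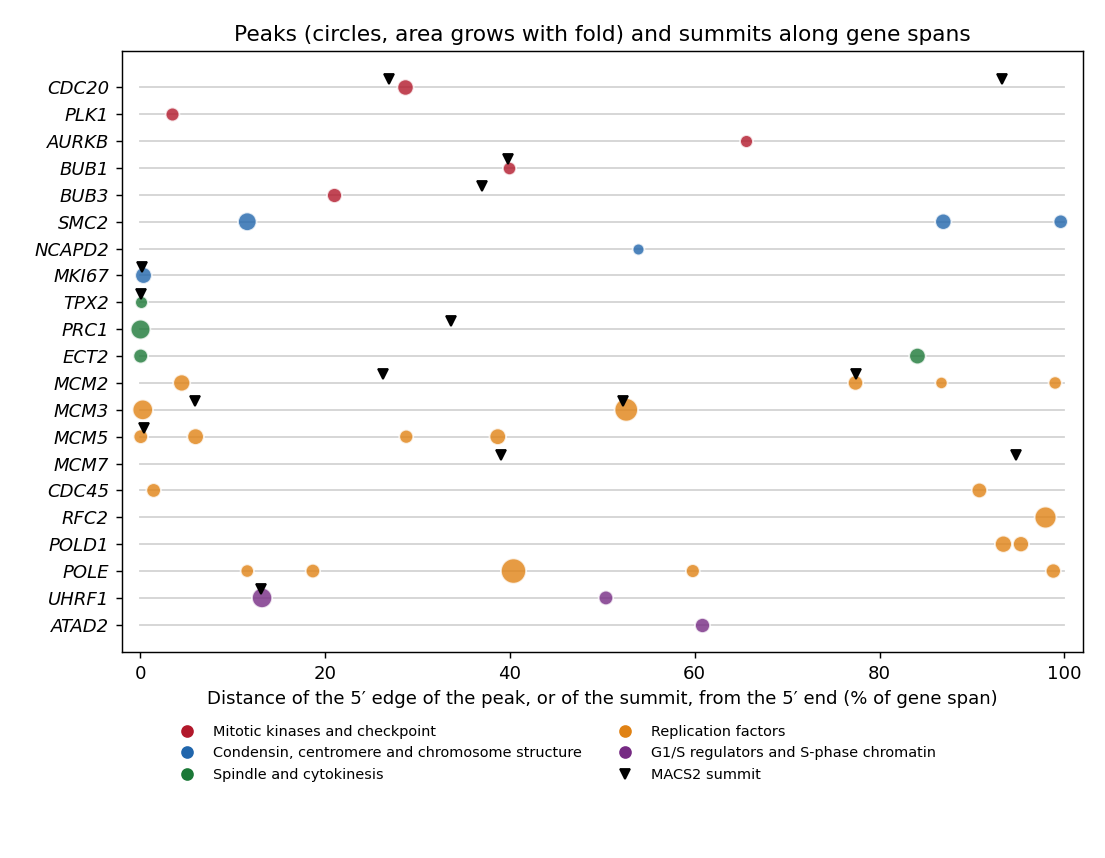
Position of MetDiff peaks (circles at the 5′ edge of the peak, area growing with fold) and MACS2 summits (black triangles) along the 21 genes with a call, in percent of the gene span from its 5′ end, introns included. ECT2, MCM3, MCM5, MKI67, PLK1, PRC1 and TPX2 have a peak that begins within 500 bases of the 5′ end. MCM2, POLE, RFC2 and SMC2 have a peak that ends within 500 bases of the 3′ end.

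Summits sat beside the exon blocks, on 1 side. Of the 15 summits of the members, 2 lay inside a block (13.3%, 3.74 to 37.9) and 8 more within 150 bases of one. All 8 were on the 5′ side of the nearest block, read on the strand of the MetDiff row, at a median of 44 bases. They lay in CDC20, BUB1, MKI67, TPX2, MCM3 (2 summits), MCM5 and UHRF1. The side refers to the nearest block, not to the whole peak. The MCM5 summit and the MCM3 summit at position 52283516 lay between blocks of the same peak. In the whole list, 1531 of the summits near a block stood on its 5′ side and 172 on its 3′ side (89.9% on the 5′ side, median 60 bases). The 5′ side therefore prevailed over all genes, not in mitosis and replication genes alone. The other 5 summits of the members, in CDC20, BUB3, PRC1 and MCM7, lay farther than 150 bases from any block.

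**Figure D5:**
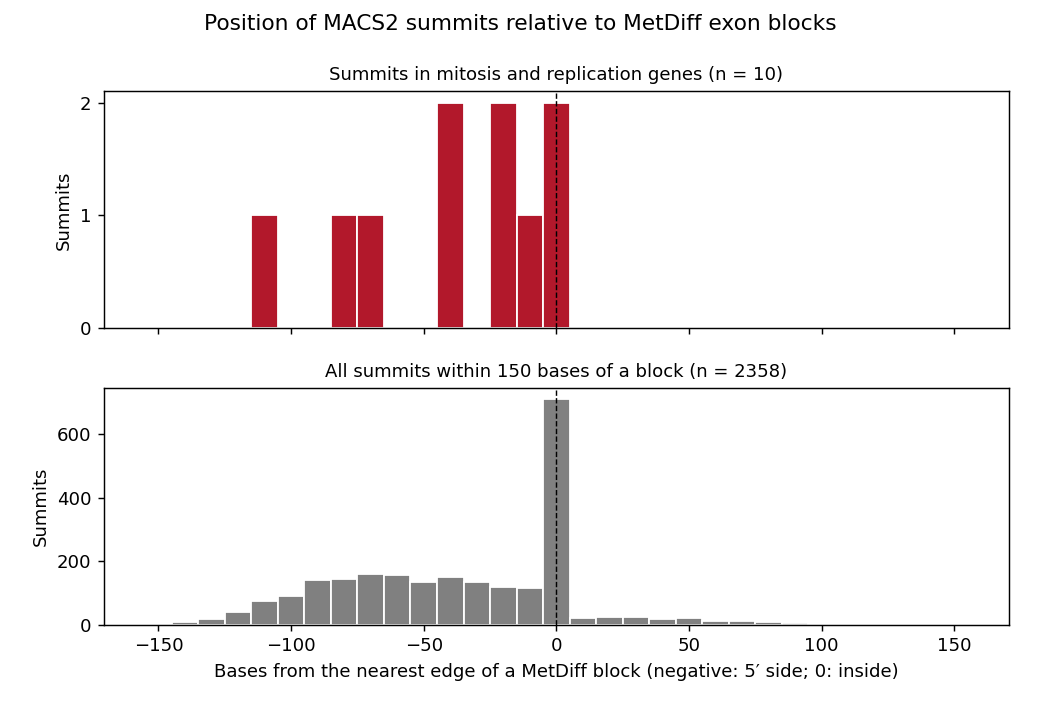
Bases from each summit to the nearest edge of a MetDiff block, negative on the 5′ side and 0 inside, for 10 summits of the members (top) and all 2358 summits within 150 bases of a block (bottom). In both panels the summits outside a block stand mostly to the left of 0.

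Other genes of both processes, kept in lists of their own, were called as well. Of 61 other mitosis genes, 23 held a MetDiff peak (37.7%, 26.6 to 50.3) and 9 a summit (14.8%). The inhibitory kinases of CDK1 led by fold, WEE1 with 21.7 and PKMYT1 with 14, followed by the condensin II subunit NCAPD3 with 13.9. By −log10 q, NCAPD3 (24.2), ZWINT (19.9) and SPC24 (19.8), the last both of the kinetochore, led. Of 51 other replication genes, 15 held a MetDiff peak (29.4%, 18.7 to 43.0) and 8 a summit (15.7%). GINS4, the partner of the uncalled GINS1 and GINS2, had a fold of 15.3, POLE3, a small subunit of the leading-strand polymerase, 12.9 and the topoisomerase TOP1 11.9. CHTF18, of an alternative clamp loader, had the highest −log10 q (27.9), followed by the helicase RECQL4 (21.2) and the DNA methyltransferase DNMT1 (19.5). The spans of PKMYT1 and NCAPD3 also hold a MetDiff row on the opposite strand, inside the spans of PAQR4 and VPS26B, and the NCAPD3 summit lies in the span of VPS26B as well. CDC25C, counted among the other mitosis genes with a peak, and CHAF1A, among the replication genes, count only through rows on the opposite strand. These rows also lie inside the spans of FAM53C and UBXN6.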

How the data were processed

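The 2 deposited peak lists of m1G immunoprecipitation in PANC-1 cells (12 libraries, 4 groups of 3) were used. STAR 2.7.1, MACS2 2.2.5 and the build GRCh38 are named in the submitters' processing notes, without role or order. The authors' MACS2 list gives 1-base summits with a −log10 value, taken as a q-value since its minimum is 1.35. The authors' MetDiff list gives exon blocks, a p-value, log10 of p and of FDR, and a fold ratio of unstated contrast. Neither list has a header. The sources used here do not say which libraries were pooled. The authors ran these steps, and no count or normalization was redone.

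Peaks wholly inside a RefSeq gene span (GRCh38.p14) were assigned to it, also where genes overlap. To test the build, MetDiff peaks were set against gene spans: 98.3% lay inside one, against 63.6% after a shift by 1000000 bases. Named are all members with a call and, of the other mitosis and replication genes, the 3 highest by fold and by −log10 q of each list; other names were chosen after their values were seen. Members and lists were chosen with earlier results of these data known. No test was run, since neither list holds replicates. Shares have 95% Wilson intervals. The assignment was tested on simulated peaks (Python 3.11.15, pandas 2.3.3). Strand came from the RefSeq promoter table, which matched 48 members; AURKA, BUB3, TTK, TPX2, MCM4, MCM5, CCNE2 and ATAD2 had no entry there. Positions follow the strand of the MetDiff row. Alternatives were a stricter FDR or −log10 q, a sole gene span, any overlap, the strand, and wider blocks or spans.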

Additional observations from a re-analysis of the deposited data

How the results depend on the processing

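Of 51 values under alternatives, 47 stayed within 1.5 times the reported count or within the interval of the median, and 4 moved. All are counts or medians, which have no direction to reverse. The number of members with a MetDiff peak was 19 at FDR under 0.01 and 20 in all other settings. The number with a summit was between 9 and 13, with 10 at −log10 q of at least 10. With a sole gene span, summits were found in 1 of the spindle and cytokinesis genes, without PRC1, and in 0 of the regulators of S-phase entry, without UHRF1; by construction, genes in overlapping spans leave the count. The number of summits of the members in a MetDiff block was 2 as reported, 7 with blocks widened by 50 bases and 10 within 150 bases. The comparison of knockdown with control was not run. No paired analysis was possible because the lists hold no value per library. Read depth is unknown, so a gene without a call cannot be told from one too weakly covered to be called.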

Other observations

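Spans of the members also hold other transcripts. The miRNA genes MIR25 and MIR106B lie in MCM7, MIR15B and MIR16-2 in SMC4, and MIR4747 in UHRF1. The nearest MCM7 summit lay 383 bases from the MIR25 hairpin and 816 bases from that of MIR106B, and SMC4 held no call. Within 500 bases outside a span, MetDiff peaks under other gene IDs stood at PCNA (457 bases away, fold 2.53, in the span of CDS2) and at POLE (294 bases away, fold 4.4, in the span of PXMP2), both on the opposite strand.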
